A study of Mus musculus with 6 samples.

Results

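The muscle lineage genes Pax3, Pax7, Myf5, Myod1, Myf6, Myog, Mymk, Mymx and Mstn were followed in RNA of the embryonic mouse rib cage, where the muscles between the ribs lie beside cartilage and forming bone. The 9 genes were chosen by name and matched by symbol to the gene IDs of the deposited count table. All 9 were found among its 55487 gene IDs, and all 9 were among the 26596 genes with enough counts to be tested (at least 10 counts summed over the libraries). RNA-Seq was run on 3 control embryos (E420, E434 and E435) and 3 mutant embryos (E423, E433 and E440) at 16.5 dpc. The labels call the controls wild type. They give the mutants as Col2-cre;Foxc1-/-;Foxc2-/-, in which both forkhead genes were floxed and were deleted by a Cre recombinase expressed from Col2 sequences in chondrocyte progenitors. Per the methods, compared embryos were littermates from floxed mothers on a mixed C57B6 and Black Swiss background, so littermate controls would carry floxed alleles too. The labels do not pair the embryos or name litters. The Cre driver is not a muscle driver, and the rib cages were cleaned of connective tissue before freezing. The paper chose the rib cage because tissue outside the skeleton could be removed well there, so muscle RNA comes from what dissection left. A level below is an average over all cells left in the dissected tissue. Fewer cells of a type and less RNA per cell cannot be told apart in such samples.

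Skeletal muscle of the trunk forms from progenitors marked by the paired-box transcription factors Pax3 and Pax7. The myogenic regulatory factors Myf5, Myod1, Myf6 and Myog are basic helix-loop-helix proteins that pair with E proteins such as Tcf3 and Tcf12, bind the DNA motif known as the E-box, and commit progenitors to muscle or drive their differentiation. Differentiating myoblasts then fuse into fibres by means of the membrane proteins myomaker (Mymk) and myomixer (Mymx), while myostatin (Mstn), a secreted member of the TGF-beta family, limits muscle growth.

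Promoter sequence was at hand in RefSeq (GRCm38.p6) for 4 of the 9 genes, namely Myf5, Myog, Mstn and Pax7. It is shown for the determination gene Myf5, the differentiation gene Myog and the growth inhibitor Mstn, which behaved differently across the libraries. Each line runs 5′ to 3′ on the gene's strand over the 250 bases before the RefSeq start, and capitals mark each E-box, searched as the 6 letters CANNTG, which read the same way on both strands.
Myf5, chr10:107486135-107486384, minus strand: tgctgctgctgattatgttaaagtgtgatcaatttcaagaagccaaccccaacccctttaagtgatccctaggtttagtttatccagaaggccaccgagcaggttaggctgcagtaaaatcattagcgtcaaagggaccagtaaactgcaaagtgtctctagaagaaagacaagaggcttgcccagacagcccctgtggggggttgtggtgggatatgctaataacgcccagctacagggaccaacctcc
Myog, chr1:134289754-134290003, plus strand: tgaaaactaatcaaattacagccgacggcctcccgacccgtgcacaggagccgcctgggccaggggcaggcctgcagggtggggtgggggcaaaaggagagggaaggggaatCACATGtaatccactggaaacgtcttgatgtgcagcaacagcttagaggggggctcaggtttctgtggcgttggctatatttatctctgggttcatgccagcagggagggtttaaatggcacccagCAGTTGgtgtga
Mstn, chr1:53061390-53061639, plus strand: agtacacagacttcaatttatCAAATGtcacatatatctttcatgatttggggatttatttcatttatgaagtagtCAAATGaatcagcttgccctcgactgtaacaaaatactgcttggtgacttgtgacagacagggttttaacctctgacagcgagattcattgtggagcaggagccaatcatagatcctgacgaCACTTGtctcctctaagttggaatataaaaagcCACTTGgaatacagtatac
The Mstn window held 4 E-boxes, the Myog window 2 and the Myf5 window 0. Of 32851 promoter windows of the same length, 66.2% held at least 1 and 31.8% held 2 or more, so an E-box in such a window is common. A match is a run of letters, not a binding site.

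The libraries held between 37853988 and 47794799 counts, and levels are given as CPM, the counts scaled to a common library size after TMM scaling in edgeR. At this depth 3 counts equal between 0.0628 and 0.0793 CPM before TMM scaling. The targeted genes had all 3 mutants below all 3 controls, at 23.1 to 36.9 CPM in controls and 3.51 to 9.60 CPM in mutants for Foxc1, and at 1.98 to 4.83 CPM and 0.649 to 1.14 CPM for Foxc2. Their log2 fold changes were -2.34 for Foxc1 (adjusted p = 0.235, edgeR) and -1.99 for Foxc2 (adjusted p = 0.239, edgeR). The test used below, with an adjusted limit of 0.1, thus did not call the deleted genes either. Libraries were not evenly spaced. Over genes, log2 ratios had an SD of 0.132 between mutants E423 and E440 and 0.153 between controls E420 and E435, and from 0.471 to 1.37 for the remaining 13 pairs. The labels name these as separate embryos. Summed CPM of 8 chondrocyte genes, all 8 detected in every library, was 1506 (E420), 21319.8 (E434) and 1409 (E435) among controls and 513 (E423), 7683 (E433) and 489 (E440) among mutants. Control E434 and mutant E433 therefore stood apart as the libraries with the most cartilage RNA, and results are given below with and without E433 where it decided them.

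None of the 9 genes passed both limits of the comparison, which were 0.1 for the adjusted p-value and 1, up or down, for the log2 fold change (edgeR's quasi-likelihood test, Benjamini-Hochberg adjustment over all genes tested). Over all genes, 17 passed, or 0.0639%. By edgeR's unadjusted p-value, 3 of the 9 genes were under 0.05 (Myf5, Myod1 and Myf6), where 10.6% of all genes were. In these same 3 genes the mutant and control libraries did not overlap, which was so for 15.0% of all genes. The count under 0.05 by edgeR's unadjusted p-value fell when other libraries were left out. It was 0 of the 9 without control E420 (1661 of all 26055 genes) and 0 without control E435 (1699 of 25958). Without control E434 it was 2 (2788 of 25978), and without mutant E423 it was 1, Myf6 (1450 of 25996). DESeq2's Wald test also put 0 of the 9 past both limits, and with no limit on the fold change it called 1, Myf6, where it called 4.34% of the genes to which it gave an adjusted p-value. With 3 embryos per group permuting the labels of 1 gene exactly gives a 2-sided p of 0.1 at best, so the tests rest on a spread estimated across all genes.

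**Figure D1:**
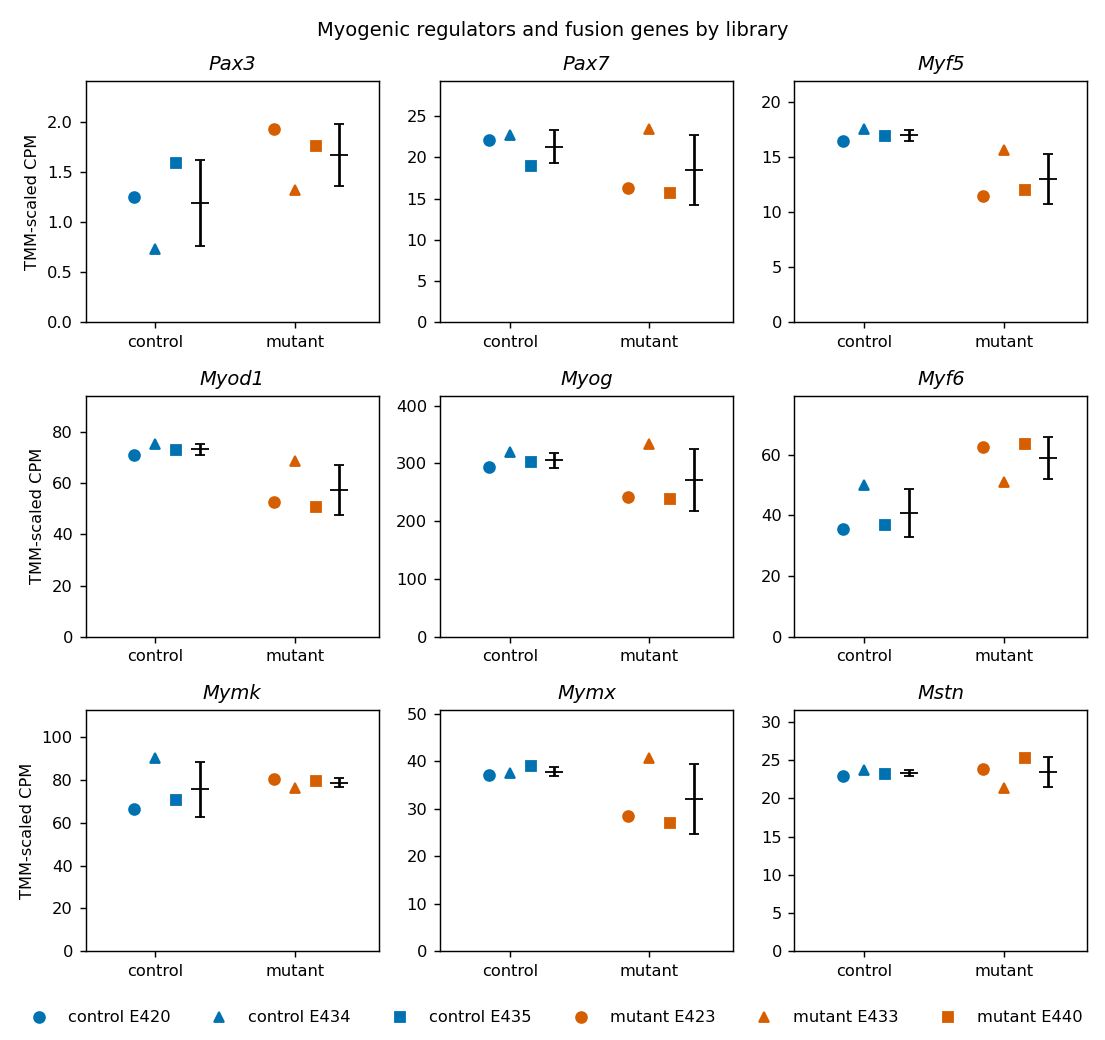
Level of each of the 9 genes in TMM-scaled CPM (vertical axes from 0) in the 3 control and 3 mutant libraries, with the mean and SD of each group (bars, n = 3). Mutants E423 and E440 lie below all 3 controls for Pax7, Myf5, Myod1, Myog and Mymx, mutant E433 lies within or near the control range, and Myf6 is higher in all 3 mutants.

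The progenitor gene Pax3 had the fewest counts of the 9. It had 1.247 (E420), 0.728 (E434) and 1.59 CPM (E435) among controls and 1.92 (E423), 1.32 (E433) and 1.76 CPM (E440) among mutants. These values came from between 33 and 81 counts per library. The groups overlapped, with the lowest level in the cartilage-rich control E434, and the log2 fold change was 0.49 (95% interval -0.28 to 1.26, adjusted p = 0.623, edgeR). The interval reaches past the fold limit. Without control E434 the log2 fold change was 0.23 (adjusted p = 0.777, edgeR). Pax3 (ENSMUSG00000004872.15) lies on chromosome 1 from 78101267 to 78197134 in GRCm38.

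Pax7, which marks the progenitors that become satellite cells, had a level that depended on mutant E433. Its values were 22.1 (E420), 22.8 (E434) and 19.02 CPM (E435) among controls and 16.3 (E423), 23.4 (E433) and 15.7 CPM (E440) among mutants. Mutants E423 and E440 were below every control, whereas mutant E433 held the highest value of all 6 libraries. The log2 fold change was -0.20 (95% interval -0.63 to 0.22, adjusted p = 0.716, edgeR), and without E433 it was -0.41 (adjusted p = 0.0920). Pax7 (ENSMUSG00000028736.13) lies on chromosome 4 from 139737062 to 139833528.

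Myf5, the first of the regulatory factors to be switched on in the embryonic somite, was lower in the mutants. It had 16.4 (E420), 17.5 (E434) and 16.9 CPM (E435) among controls and 11.4 (E423), 15.6 (E433) and 11.98 CPM (E440) among mutants. Every mutant library was below every control, by little in E433. Mutant over control, the log2 fold change was -0.38 (95% interval -0.72 to -0.04, unadjusted p = 0.0344, adjusted p = 0.440, edgeR), and it did not pass the adjusted limit. Without E433 the log2 fold change was -0.53 (adjusted p = 0.0351, edgeR). In TPM from RSEM, the authors' other pipeline, the groups overlapped, with 11.1 to 12.4 TPM in controls and 7.44 to 11.4 TPM in mutants. These TPM were not TMM-scaled. With RSEM's expected counts after TMM scaling, the log2 fold change of Myf5 was -0.36 (unadjusted p = 0.0412, adjusted p = 0.429, edgeR).

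Myod1, which converts cells to the muscle fate, followed Myf5. Its levels were 71.2 (E420), 75.5 (E434) and 73.3 CPM (E435) among controls and 52.8 (E423), 68.7 (E433) and 50.9 CPM (E440) among mutants. The controls lay within 1.06-fold of each other, and all 3 mutants were below them. In the test, its log2 fold change was -0.35 (95% interval -0.65 to -0.05, unadjusted p = 0.0283, adjusted p = 0.429, edgeR), and -0.50 without E433 (adjusted p = 0.0173). In TPM, without TMM scaling, the groups overlapped, at 56.3 to 60.4 TPM in controls and 37.8 to 57.6 TPM in mutants, the highest mutant being E433. With RSEM's expected counts after TMM scaling, the log2 fold change of Myod1 was -0.34 (unadjusted p = 0.0321, adjusted p = 0.411, edgeR). Myod1 (ENSMUSG00000009471.4) lies on chromosome 7 from 46376474 to 46379099.

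Myog, needed for myoblasts to differentiate into fibres, had the highest level of the 9 genes per transcript length. It had 294 (E420), 319 (E434) and 302 CPM (E435) among controls and 242 (E423), 334 (E433) and 239 CPM (E440) among mutants. As for Pax7, the highest and the 2 lowest libraries were all mutants, so the groups overlapped. This was a log2 fold change of -0.17 (95% interval -0.52 to 0.18, adjusted p = 0.713, edgeR), and -0.34 without E433 (adjusted p = 0.0551). Myog (ENSMUSG00000026459.5) lies on chromosome 1 from 134289989 to 134292548 and rested on 10056 to 14666 counts per library, the deepest coverage of the 9.

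Myf6, also named MRF4, acts early with Myf5 and later becomes a main regulatory factor of formed fibres. It was the 1 regulatory factor that was higher in the mutants, with 35.5 (E420), 49.96 (E434) and 36.9 CPM (E435) among controls and 62.6 (E423), 51.1 (E433) and 63.6 CPM (E440) among mutants. All 3 mutants were above all 3 controls, but control E434 and mutant E433 were nearly level. The fitted log2 fold change was 0.53 (95% interval 0.15 to 0.92, unadjusted p = 0.0136, adjusted p = 0.390, edgeR; adjusted p = 0.0826, DESeq2). The groups were also apart in TPM, at 43.0 to 60.7 TPM in controls and 64.7 to 70.3 TPM in mutants. Without E433 the log2 fold change was 0.63 (adjusted p = 0.0822, edgeR). Myf6 (ENSMUSG00000035923.4, chromosome 10 from 107492853 to 107494737) and Myf5 (ENSMUSG00000000435.1, chromosome 10 from 107482908 to 107486134) are neighbours on the same strand, 6718 bases apart, and differed in opposite directions.

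Neither fusion gene passed the limits. Mymk had 66.3 (E420), 90.0 (E434) and 70.4 CPM (E435) among controls and 80.3 (E423), 76.3 (E433) and 79.5 CPM (E440) among mutants. All 3 mutants lay between the lowest and the highest control, and the log2 fold change was 0.06 (95% interval -0.24 to 0.36, adjusted p = 0.892, edgeR). The overlap rested on the cartilage-rich control E434, as all 3 mutants were above E420 and E435. Without E434 the log2 fold change of Mymk was 0.20 (unadjusted p = 0.0343, adjusted p = 0.437, edgeR). Mymx had 37.0, 37.4 and 38.9 CPM in the same controls and 28.5, 40.6 and 27.0 CPM in the same mutants. Here the controls were close together, mutants E423 and E440 were below them and E433 was above them. The log2 fold change of Mymx was -0.24 (95% interval -0.63 to 0.15, adjusted p = 0.636, edgeR), and -0.44 without E433 (adjusted p = 0.0276). Mymk (ENSMUSG00000009214.9) lies on chromosome 2 from 27061636 to 27072179 and Mymx (ENSMUSG00000079471.4) on chromosome 17 from 45600971 to 45602102.

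Mstn was the steadiest of the 9 genes. It had 23.0 (E420), 23.7 (E434) and 23.2 CPM (E435) among controls and 23.8 (E423), 21.4 (E433) and 25.2 CPM (E440) among mutants. The log2 fold change was 0.01, with a 95% interval from -0.22 to 0.24 (adjusted p = 0.982, edgeR), and its sign depended on the processing. The SD of its log2 CPM over the 6 libraries was 0.08, against 0.16 for Mymk, 0.20 for Myog, 0.25 for Mymx, Myod1 and Pax7, 0.27 for Myf5, 0.36 for Myf6 and 0.48 for Pax3. Mstn (ENSMUSG00000026100.6) lies on chromosome 1 from 53061640 to 53068079. In the annotation behind the counts, 0 other genes overlapped the span of any of the 9.

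**Figure D2:**
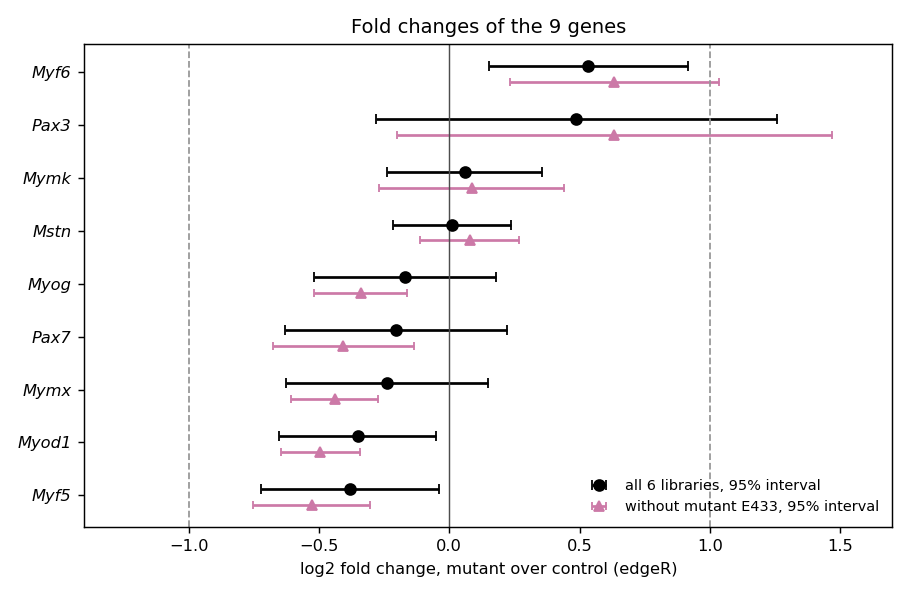
Log2 fold change of each gene, mutant over control, with its 95% interval from edgeR, for all 6 libraries (circles) and without mutant E433 (triangles); dashed lines mark a log2 fold change of 1 either way. With all 6 libraries the 9 estimates lie between -0.38 and 0.53, and without E433 they lie between -0.53 and 0.63. Only the interval of Pax3, the gene with the fewest counts, reaches past a dashed line with all 6 libraries.

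Levels of different genes can be compared per transcript length, for which the TPM of the RSEM pipeline were used. In order of the control mean, the level was 307 ± 17.2 TPM for Myog, 93.5 ± 1.55 TPM for Mymx, 81.4 ± 13.6 TPM for Mymk, 57.7 ± 2.33 TPM for Myod1 and 49.0 ± 10.1 TPM for Myf6 (SD, n = 3). Below them came Mstn at 12.4 ± 0.394 TPM, Myf5 at 11.7 ± 0.686 TPM, Pax7 at 5.18 ± 0.733 TPM and Pax3 at 0.440 ± 0.151 TPM (SD, n = 3). The genes of differentiation and fusion thus stood above those of the progenitors. Neighbours in this order were apart over all 6 libraries except Mymx and Mymk, Myod1 and Myf6, and Mstn and Myf5. Mymx was above Mymk in 3 of 6 libraries and Myod1 above Myf6 in 2 of 6. In the mutants the order of Myod1 and Myf6 was turned, with 44.7 ± 11.2 TPM for Myod1 and 68.2 ± 3.01 TPM for Myf6 (SD, n = 3). Control E434 had this turned order too, by little, at 60.4 TPM for Myod1 and 60.7 TPM for Myf6.

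**Figure D3:**
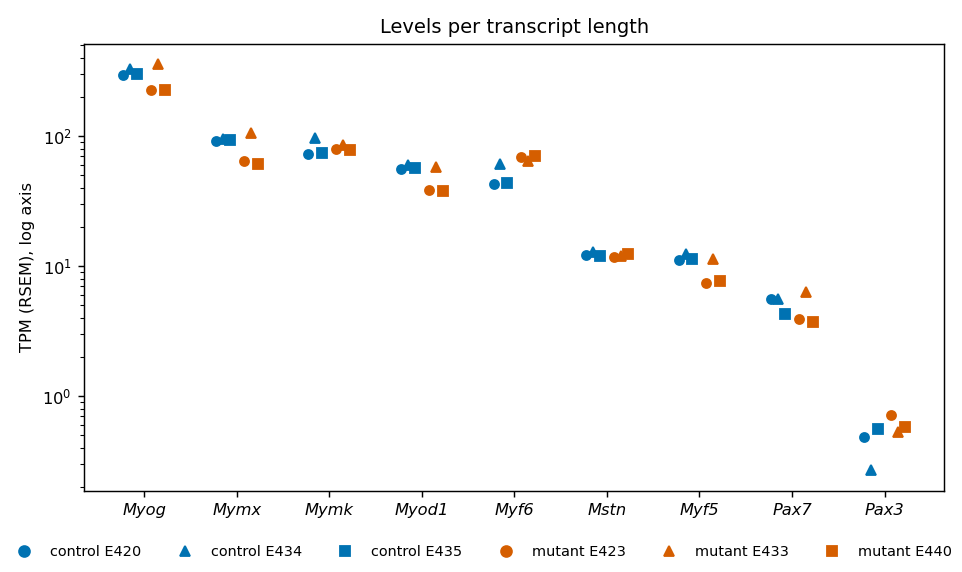
TPM per library (log axis) for the 9 genes, ordered by the mean of the controls, with controls and mutants side by side. Myog lies between 225 and 357 TPM and Pax3 between 0.27 and 0.72 TPM, and the mutant points for Myf6 lie above those for the controls.

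A pattern shared by several genes was carried by mutants E423 and E440. In both of these libraries Pax7, Myf5, Myod1, Myog and Mymx, 5 of the 9 genes, were below all 3 controls, where 23.0% of all genes were. Mutant E433 was 1.46-fold above the mean of the other 2 mutants for Pax7 and for Mymx, 1.39-fold for Myog and 1.33-fold for Myf5 and for Myod1. It was below them for Pax3, at 0.719 times their mean, and for Myf6, at 0.810 times. Without E433, edgeR gave 6 of the 9 genes an adjusted p-value under 0.1 (these 5 lower and Myf6 higher), where it did so for 13.4% of all genes, and 0 of the 9 passed the fold limit. The 2 mutants then left are the pair of libraries most alike.

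Other tissue markers moved with the same libraries. CPM was summed over 20 genes of differentiated muscle, such as the actin Acta1, the creatine kinase Ckm and the embryonic and neonatal myosins Myh3 and Myh8. The sum was 22444 (E420), 35622 (E434) and 23091 (E435) among controls and 46887 (E423), 28486.5 (E433) and 45779 (E440) among mutants. All 20 were detected in every library, and 0 passed the limits. Of the 20, 18 had a log2 fold change above 0, where 13628 of all 26596 genes did. Without E433, 8 of the 20 passed 0.1 by adjusted p-value, all higher, where 13.4% of all genes did. Past both limits in that fit were 2 (Ckm and Myh8, edgeR), where 1087 of all 25844 genes were. Summed CPM of 8 keratinocyte genes was 5541, 20.3 and 6303 in the controls and 27293, 3262 and 27437 in the mutants, in the same order, with all 8 detected in every library. Mutants E423 and E440 thus had the lowest levels of the 5 genes, the highest summed CPM of contractile muscle and of epidermal genes, and the lowest of cartilage genes. Single genes did not all follow these sums, as Myh3 was highest in control E434 and Ryr1 in mutant E433. Mutant E433 stood apart in 7 hepatocyte genes, whose summed CPM was 629 there and between 30.4 and 49.99 in the other 5 libraries, with all 7 detected in every library. The part of these tissues in the levels of the 5 genes was not tested. The values below, scaled to the muscle list or fitted with it as a covariate, cannot decide it, since the list itself varied across the libraries. In relation to 1000 CPM of the muscle list, Myog was at 13.1, 8.96 and 13.1 CPM in controls and 5.16, 11.7 and 5.22 CPM in mutants, in the same order. On this scale E433 lay within the control range and the other 2 mutants below it. Myf6 was at 1.58, 1.40 and 1.599 CPM in controls and 1.33, 1.79 and 1.39 CPM in mutants per 1000 CPM of the muscle list, so the groups overlapped, and its mutant mean was 0.985 times the control mean. With the mean log2 CPM of the muscle list as a covariate, the log2 fold change of Myf6 was 0.20 and that of Myod1 -0.24, with an adjusted p-value of 0.947 for both (edgeR).

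**Figure D4:**
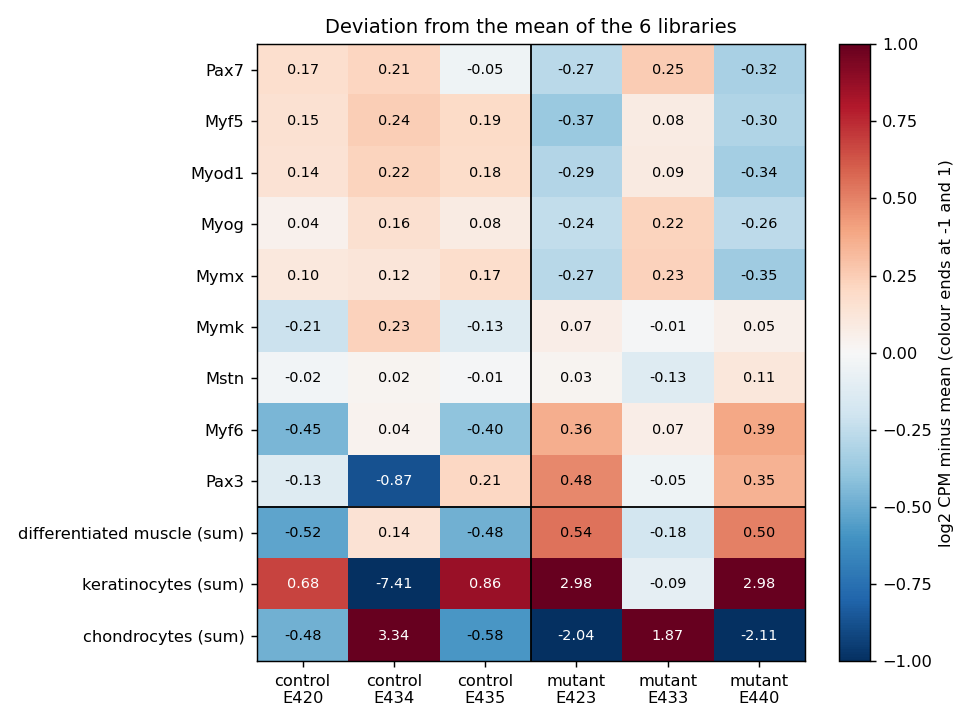
Deviation of log2 CPM from the mean of the 6 libraries for the 9 genes (top) and for the summed CPM of 3 marker lists (bottom), with values printed; the colour scale ends at -1 and 1, beyond which the list values run. Pax7, Myf5, Myod1, Myog and Mymx are below their mean in mutants E423 and E440 (between -0.24 and -0.37), while Myf6 and the muscle list are above theirs.

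Ratios between genes of the same library do not depend on the scaling. Of 6 such ratios, picked from the possible pairs of these genes, 2 had all mutants outside the control range. The share among other gene pairs was not computed, so this count does not set these genes apart. Myf6 over Myod1 was 0.499 (E420), 0.662 (E434) and 0.504 (E435) among controls and 1.19 (E423), 0.743 (E433) and 1.249 (E440) among mutants. Myog over Myod1 was 4.13, 4.23 and 4.13 in the controls and 4.58, 4.86 and 4.70 in the mutants. The first ratio was higher in all 3 mutants but by little in E433. It had to be higher, as every mutant was above every control for Myf6 and below every control for Myod1. The second ratio was evenly higher, by 1.13-fold in the mean. Mymx over Mymk was 0.559, 0.416 and 0.553 in the controls and 0.355, 0.532 and 0.340 in the mutants, so those groups overlapped.

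By root mean square difference of centred log2 CPM over the 6 libraries, the genes most like Pax7 among 16558 with a mean of at least 1 CPM were Heg1 (0.0273), Phlpp2 (0.0291), Rnft2 (0.0323) and Ppp1r26 (0.0331). Those most like Myog were Mapk1ip1l (0.0235), Wrnip1 (0.0266), Nek6 (0.0298) and Cep192 (0.0308). Pax7 and Myog differed from each other by 0.0821, and Mymx from Myog by 0.0631. Set among these 16558 genes, Myog ranked only 207 in likeness to Pax7, Pax7 only 470 in likeness to Myog, and Mymx 178 in likeness to Myog. The 6 points of each gene share their libraries.

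Genes that work with the 9 were read from 6 lists holding 90 genes, of which 89 were tested. None of the 89 passed both limits, 1 (Id3) passed an adjusted p-value under 0.1 with no limit on the fold change (0.0902% of all genes did), and 19 (21.3%) fell under 0.05 by unadjusted p-value, against 10.6% of all genes. In 28 of the 89, or 31.5%, the groups did not overlap, with the mutants lower in 23 and higher in 5, against 15.0% of all genes. The median log2 fold change over the 89 was -0.13, and over all genes tested it was 0.01. Leaving out E433, 24 of the 89 passed 0.1 by adjusted p-value, 23 of them lower, against 13.4% of all genes (edgeR, no limit on the fold change). Past both limits without E433 were 4 of the 89, where 1087 of all 25844 genes tested in that fit were. They were Eya2, Meox1, Chrne and the adhesion gene Kirrel3 (log2 fold change -1.09, adjusted p = 0.0415), the last of which is named after its values were seen.

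Id3, a helix-loop-helix protein without a DNA-binding region that ties up the partners of the regulatory factors, was the clearest of these genes. It had 132 (E420), 129 (E434) and 128 CPM (E435) among controls and 80.3 (E423), 81.1 (E433) and 78.7 CPM (E440) among mutants. Both groups were tight and far apart, and mutant E433 lay with the other mutants. Mutant over control, the log2 fold change was -0.70 (standard error 0.06, adjusted p = 0.0775, edgeR), under the fold limit. Over the alternatives its log2 fold change ran from -0.71 to -0.68 and its adjusted p-value from 3.17e-15 to 0.9998. Its relatives Id1 (log2 fold change -0.21, adjusted p = 0.429) and Id2 (-0.29, adjusted p = 0.429, and 0.0993 without E433) did not pass in edgeR with all libraries, although the mutants were below the controls in each of the 3 Id genes. Among the other 12 partners and inhibitors, the E protein genes Tcf3, Tcf4 and Tcf12 had log2 fold changes of -0.17, -0.13 and -0.23. Without E433, Tcf12 had a log2 fold change of -0.33 (adjusted p = 0.0440, edgeR), while Tcf3 and Tcf4 did not pass 0.1.

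Among 15 regulators of progenitors, upstream of or beside the Pax genes, 0 passed the limits, and 5 of the 6 with an unadjusted p-value under 0.05 were lower. The smallest p-values were those of Dach2 (log2 fold change -1.15, adjusted p = 0.321), Eya2 (-0.86, adjusted p = 0.380) and Meox1 (-0.86, adjusted p = 0.394, all edgeR). Eya2 and Dach2 are transcriptional cofactors and Meox1 is a homeobox gene of the somite. In all 3 genes the mutants lay below the controls. DESeq2 called Dach2 past both limits (adjusted p = 0.0225); in the edgeR alternatives its adjusted p-value ran from 0.000643 to 0.9998. Without E433, Eya2 and Meox1 passed both limits (log2 fold change -1.13 and -1.20, adjusted p = 0.0276 and 0.0175, edgeR), and Dach2 had a log2 fold change of -0.97 (adjusted p = 0.0796).

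Among 13 surface and signalling genes of muscle progenitors, 0 passed the limits, 11 had a log2 fold change below 0 and their median was -0.12. The smallest unadjusted p-values were those of Chodl (log2 fold change -0.37, adjusted p = 0.418, and 0.0174 without E433), the calcitonin receptor Calcr (-0.51, adjusted p = 0.437) and Cd34 (0.20, adjusted p = 0.489, all edgeR). Cdh15, the adhesion protein M-cadherin, had 72.8, 88.1 and 77.1 CPM in controls and 66.0, 83.6 and 62.6 CPM in mutants, which overlap, and it is named here after its values were seen. Of 17 accessory genes of fusion that were tested, 14 had a log2 fold change below 0 and 0 passed. The adhesion gene Jam2 (log2 fold change -0.36, adjusted p = 0.407), Elmo1 (-0.29, adjusted p = 0.413, and 0.0927 without E433) and Dock5 (-0.30, adjusted p = 0.428) came first, the latter being parts of the machinery that activates Rac1.

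Among 18 genes of the myostatin pathway, 0 passed the limits. The inhibitory Smad gene Smad7 had 17.1, 22.9 and 17.3 CPM in controls and 12.2, 13.7 and 11.9 CPM in mutants. Every mutant was below every control, with a log2 fold change of -0.60 (adjusted p = 0.347, edgeR; adjusted p = 0.0273, DESeq2), and -0.66 without E433 (adjusted p = 0.0749, edgeR). The activin subunit gene Inhba (log2 fold change -0.72, adjusted p = 0.421) and the receptor gene Tgfbr1 (-0.33, adjusted p = 0.429, and 0.0806 without E433) followed. Myostatin's receptor genes Acvr2b and Acvr2a had log2 fold changes of -0.35 and 0.17, and its inhibitor gene follistatin (Fst) 0.08, none of which passed. Without E433, Acvr2b had a log2 fold change of -0.54 (adjusted p = 0.0698, edgeR), while Acvr2a and Fst did not pass 0.1.

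Of 11 genes of the nerve-muscle endplate, 0 passed the limits and the median log2 fold change was -0.03. The adult acetylcholine receptor subunit gene Chrne had between 2 and 23 counts per library. Its level was 0.102, 0.110 and 0.0412 CPM in controls and 0.361, 0.186 and 0.498 CPM in mutants, higher in all 3 mutants (log2 fold change 2.03, adjusted p = 0.380, edgeR). Without E433 it passed both limits (log2 fold change 2.34, adjusted p = 0.0578, edgeR). With all libraries DESeq2 gave Chrne an adjusted p of 0.174, and edgeR's own expression filter, 1 of the alternatives, removed the gene. The fetal subunit gene Chrng was at 57.5, 97.2 and 64.6 CPM in controls and 71.4, 88.2 and 74.0 CPM in mutants, which overlap. Dok7 (log2 fold change -0.18, adjusted p = 0.6002) and Colq (-0.29, adjusted p = 0.651) came next by p-value.

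**Figure D5:**
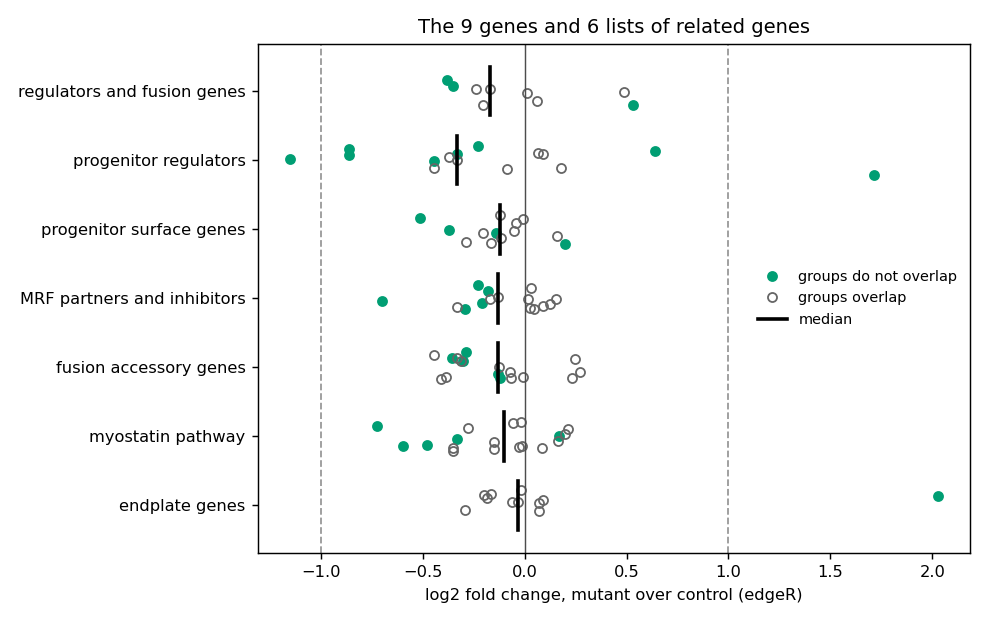
Log2 fold change, mutant over control, of the 9 genes and of the tested genes in 6 lists of related genes, 1 point per gene; filled points are genes whose control and mutant libraries do not overlap, bars are medians and dashed lines mark a log2 fold change of 1 either way. The medians lie between -0.33 (progenitor regulators) and -0.03 (endplate genes), and points past a dashed line did not pass the adjusted limit.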

How the data were processed

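The authors prepared stranded mRNA libraries (NEBNext), sequenced them from both ends, mapped reads to GRCm38 with HISAT2 2.1.0 and deposited counts per gene from featureCounts 1.6.0 on GENCODE exons. Per the file headers, primary alignments were counted, each end of a pair on its own and without strand. The authors also deposited expected counts and TPM per gene from STAR 2.7.6 and RSEM 1.2.31; these expected counts were rounded to whole numbers for 1 alternative. A pair of tables with the authors' own DESeq2 comparisons, including 12 columns of per-sample values, was not used.

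The 9 genes, the gene lists and the rule for naming genes were chosen with earlier results of these data known. Genes needed at least 10 counts summed over libraries. The test was the quasi-likelihood test of edgeR 4.0.16 (glmQLFit, glmQLFTest) after TMM scaling, in R 4.3.3, with Benjamini-Hochberg adjustment over all 26596 genes. Named genes were the 9, the 3 genes of each of the 6 lists with the smallest p-value, the 4 genes most like Pax7 and Myog (log2 CPM with a prior count of 2), and genes beside them, including E protein and receptor genes, chosen after values were seen. P-values measure the spread between embryos as labelled. Alternatives were DESeq2 1.42.0, its size factors, other filters and limits, the RSEM counts, leaving out libraries, summing close libraries, and a muscle or chondrocyte covariate. Those that joined a test or left-out library with no fold limit, and the values of list genes, were added after the data were seen. The steps were tested on simulated data. Symbols came from an older GENCODE release on the same build. Fusion gene Arhgap26 matched several IDs and was left out.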

Additional observations from a re-analysis of the deposited data

How the results depend on the processing

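None of the 9 genes passed both limits under any alternative run. With no limit on the fold change, DESeq2 gave 1 of the 9, 5 of the 89 list genes and 950 of all genes, and edgeR without E433 gave 6, 24 and 3463. In edgeR with all libraries and no fold limit, 1 list gene passed. Past both limits, DESeq2 called 1 list gene and 477 of all genes. The count over all genes was 37 with no low-count filter, 10 with the RSEM expected counts, 0 at an adjusted p-value under 0.01, 0 with close libraries summed (769 at an unadjusted p under 0.05), 3 with the muscle covariate and 259 with the chondrocyte covariate, which called 1 list gene. Leaving out 1 library gave 0 to 4 list genes and 0 to 1087 of all genes, the highest without E433 and 0 without E420, E435, E423 or E440 (1450 to 1699 at an unadjusted p under 0.05, edgeR). Without E434 and E433 together, 5 list genes and 2066 of all genes passed. Mymk changed sign without E420 (-0.026), with close libraries summed (-0.025) and with the muscle covariate (-0.15). Mstn changed sign without E423 (-0.00051), without E440 (-0.044), with close libraries summed (-0.032), with the muscle covariate (-0.084) and with the chondrocyte covariate (-0.019). The other 7 genes kept their sign. The cause of these changes was not tested, except that leaving out or summing libraries leaves fewer samples. No paired analysis was possible because embryo numbers do not pair the groups. Chrne (2 to 23 counts per library), Dach2 (30 to 110) and Pax3 (33 to 81) rest on few counts.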
